A study of Mus musculus with 15 samples.

Results

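Mice given MPTP and then a low dose of a Bruton tyrosine kinase (BTK) inhibitor were compared with mice given MPTP alone, by RNA sequencing of the brain. The 6 libraries, low-dose 1 to 3 and MPTP 1 to 3, were picked by their sample labels and by no measured value, and they are 6 of the 15 in the series. All 6 share 7 days of acclimation and 1 week of MPTP at 20 mg/kg/day into the peritoneum. The low-dose mice then took the inhibitor for 4 weeks, at 1 µg/kg/day by mouth in the protocol but at 25 pM in the sample labels, and the MPTP mice were kept on normal chow for those 4 weeks. The compound, strain, sex and age are not given, and the labels name brain but no region. The protocol gives 8 mice per group, and the labels do not say whether a library is 1 mouse or a pool. The p-values of the main fit therefore reflect only the spread between libraries, which may be technical. That spread was estimated over all 15 libraries of the series, not over the 6 alone. The 9 other libraries are 3 with MPTP and a high dose of the inhibitor (2 µg/kg/day, or 50 pM), 3 with MPTP and levodopa at 2 mg/kg/day (by mouth in one label field and into the peritoneum in another), and 3 controls on normal chow without MPTP (5 weeks in the sample labels, 6 in the protocol).

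MPTP is turned in the brain into a toxin that dopamine neurons of the substantia nigra take up through their transporter and that blocks respiratory complex I. BTK is a cytoplasmic kinase that passes signals from B cell and Fc receptors to phospholipase C gamma, and in the brain it is made mainly by microglia. The series title names Nurr1, the product of Nr4a2, a nuclear receptor that dopamine neurons need for their identity and that, like its relatives Nr4a1 and Nr4a3, can also be switched on as an immediate early gene by synaptic activity. Immediate early genes respond within minutes to calcium and MAP kinase signals and are usually higher in the active forebrain than in the brainstem.

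Levels are given as CPM, read counts scaled to library size and TMM-normalized, for libraries 1, 2 and 3 of a group in that order, and they compare libraries, not genes of unequal length. Counts were taken over the 21821 genes tested with edgeR's quasi-likelihood test and Benjamini-Hochberg adjustment at 0.05. Of these, 1861 changed, 8.53% of all, with 1042 higher in low dose (4.78%) and 819 lower (3.75%). The median size of the log2 fold change was 0.93 among genes that rose and 0.90 among those that fell, and the median over all genes tested was -0.0045. Library totals ran from 58934299 to 61998459 reads in low dose and from 66458264 to 67305598 in MPTP. The 3 values of the groups did not overlap for 40.7% of all genes tested. Among called genes they overlapped for only 1 that rose and 2 that fell, so a gap between the groups adds nothing to a call. Leaving out 1 library cut the total to 1074 without low-dose 1, 1300 without low-dose 2 and 627 without low-dose 3, and to 884, 421 and 426 without MPTP 1, 2 and 3. Of the 1861 genes, 317 were called in all 6 of these fits. With scores for cerebellar, cortical and thalamic markers as covariates, no gene was called at the adjusted threshold, every list count given from here on was 0 in that fit, and 17 of the 126 called genes named here changed sign. These scores are built from genes of the same libraries, and why the calls were lost was not tested. The files of the 6 inhibitor libraries have 26 header fields and those of the other 9 have 53, so any difference in handling cannot be told apart from the inhibitor.

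**Figure D1:**
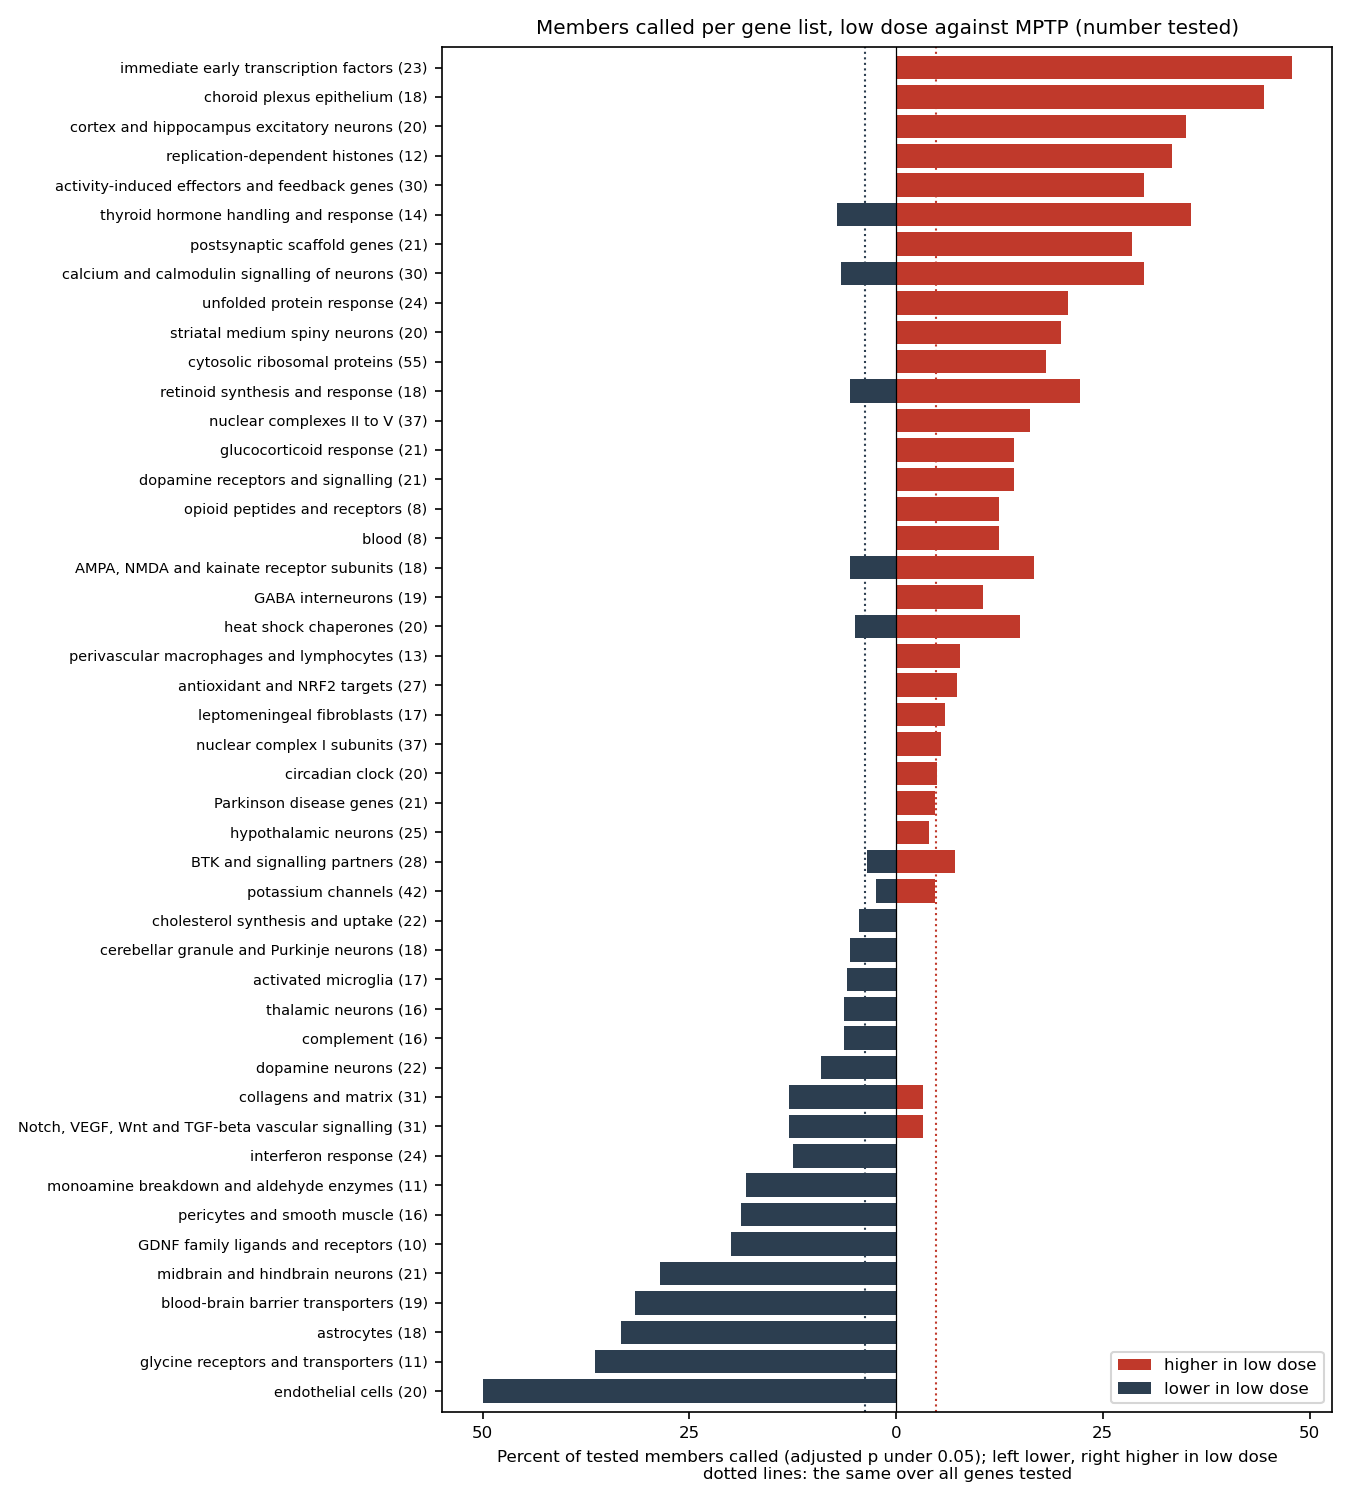
Percent of tested members called in low dose against MPTP, per gene list with at least 1 call, lower in low dose to the left and higher to the right, with the number tested in brackets. Dotted lines mark the same percent over all genes tested (4.78% higher, 3.75% lower), and immediate early transcription factors stand at one end and endothelial genes at the other.

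Markers of neurons and oligodendrocytes were present in all 6 libraries, as the label brain implies, but markers of single brain regions differed between the groups. The 20 summed markers of cortical and hippocampal excitatory neurons were 4469.5, 3462 and 3962 CPM in low dose, against 1074, 1073 and 1078 CPM in MPTP. The summed striatal markers were 3342, 2775 and 2761 CPM in low dose, against 833, 689 and 808 CPM in MPTP. Both sums were higher in every low-dose library than in any MPTP library. Midbrain and hindbrain markers ran the other way, with sums of 27.6, 52.4 and 39.8 CPM in low dose, against 130.3, 159.7 and 309 CPM in MPTP, and so did thalamic markers, with 597, 758 and 976 CPM in low dose, against 1831, 2246 and 1841 CPM in MPTP. Sums for oligodendrocytes (11589.5, 16506 and 14627 CPM in low dose, against 10491, 16613 and 14177 CPM in MPTP) and for homeostatic microglia (555, 574 and 476 CPM in low dose, against 486, 578 and 492 CPM in MPTP) overlapped. In bulk tissue, fewer cells of a type and less RNA per cell cannot be told apart, and the part of regional content in each result was not tested beyond the fit with covariates. Single libraries also stood out. Gh, a pituitary hormone, reached 36.5 CPM in low-dose 2 against at most 11.4 CPM in the other 5. Pomc, a hypothalamic peptide gene, reached 95.8 CPM in low-dose 1 against at most 7.19 CPM. Tph2, the serotonin synthesis enzyme, reached 65.8 CPM in MPTP 3 against at most 3.23 CPM. Low-dose 2 lay closest to the MPTP libraries for 508 of the 1042 genes that rose and 457 of the 819 that fell.

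**Figure D2:**
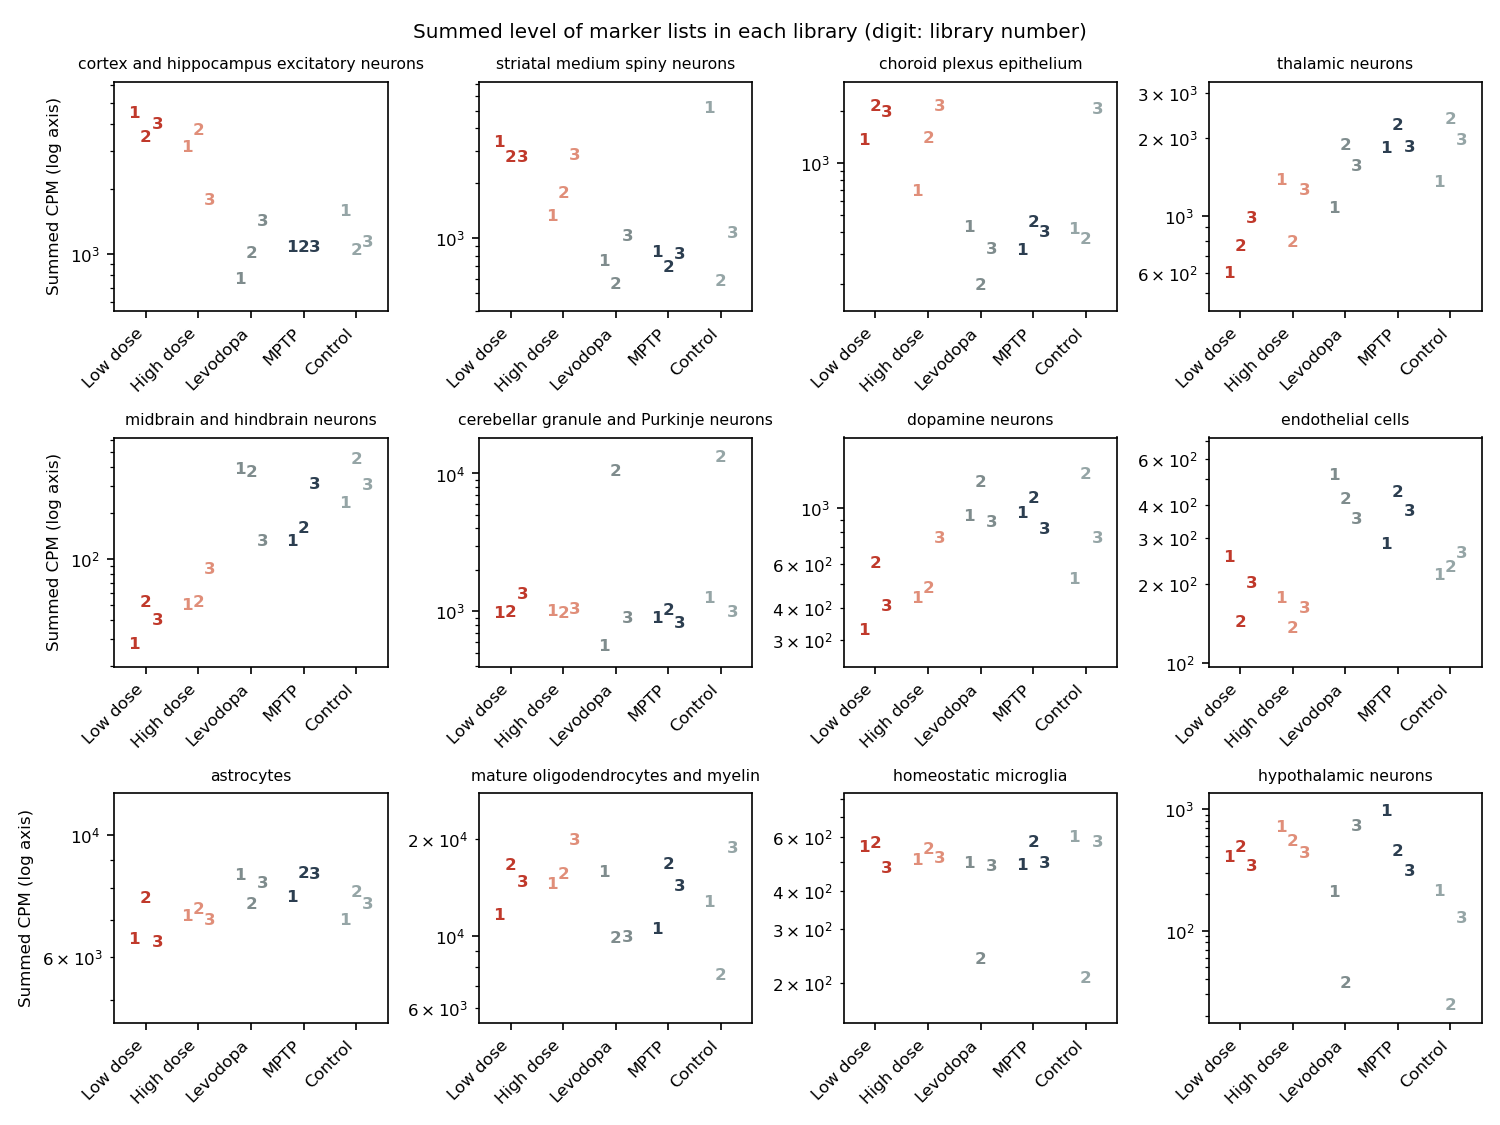
Summed CPM of 12 marker lists (log axis) in each of the 15 libraries, where a digit is the library number and colours mark the groups. The cortical, striatal and choroid plexus sums of the 3 low-dose libraries lie above those of the 3 MPTP libraries, and the thalamic, midbrain and endothelial sums lie below them.

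Among immediate early transcription factors, 11 of 23 tested members rose in low dose and 0 fell, with a median log2 fold change of 0.94. The members that rose were Egr1, Egr2, Egr3, Egr4, Junb, Jund, Fosl2, Klf10, Ier5, Nr4a1 and Nr4a3. Egr1, a zinc finger factor of synaptic plasticity, had 293, 195 and 301 CPM in low-dose libraries and 46.0, 63.1 and 70.2 CPM in MPTP libraries (log2 fold change 2.14 ± 0.32 SE, adjusted p = 0.00405). Junb, an AP-1 subunit, had 64.2, 39.5 and 47.2 CPM in low dose and 9.47, 13.6 and 10.48 CPM in MPTP (log2 fold change 2.17 ± 0.36 SE, adjusted p = 0.00593). For both genes the lowest low-dose library, number 2, stood well above the highest MPTP library. Klf10, a TGF-beta-responsive factor, had 34.9, 25.6 and 38.1 CPM in low dose and 4.04, 5.51 and 5.28 CPM in MPTP (log2 fold change 2.73 ± 0.42 SE, adjusted p = 0.0044). Ier5 had 62.1, 34.9 and 82.4 CPM in low dose and 13.3, 12.0 and 16.1 CPM in MPTP (log2 fold change 2.12 ± 0.34 SE, adjusted p = 0.00551), again with no overlap. Egr2 had 11.5, 7.11 and 12.6 CPM in low dose and only 0.0878, 0.308 and 0.357 CPM in MPTP, with an adjusted p of 0.0393 that reached 0.132 without MPTP 2. Egr3 reached 0.162 without MPTP 2, Egr4 0.0599 without MPTP 2 and Jund 0.15 without MPTP 2, and the other 7 members were called with any library left out. The list count lay between 7 (without MPTP 2) and 9 (without low-dose 2 or MPTP 1) with 1 library left out.

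Fos, the AP-1 subunit most used to mark active neurons, did not pass. It had 34.0, 22.0 and 27.0 CPM in low dose and 23.2, 28.4 and 22.5 CPM in MPTP. Its partner Jun had 39.1, 62.4 and 38.3 CPM in low dose and 47.8, 53.9 and 41.3 CPM in MPTP. Npas4, a factor switched on by neuronal calcium, had 52.0, 17.2 and 31.5 CPM in low dose and 23.7, 23.9 and 23.2 CPM in MPTP. The 2 groups overlapped for all 3 genes, with adjusted p-values of 0.722 for Fos, 0.944 for Jun and 0.571 for Npas4. With the regional scores as covariates the low-dose difference was 0.99 ± 0.73 SE on the log2 scale for Egr1 and 0.44 ± 0.60 SE for Junb, with adjusted p-values of 0.861 for Egr1 and 0.925 for Junb.

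**Figure D3:**
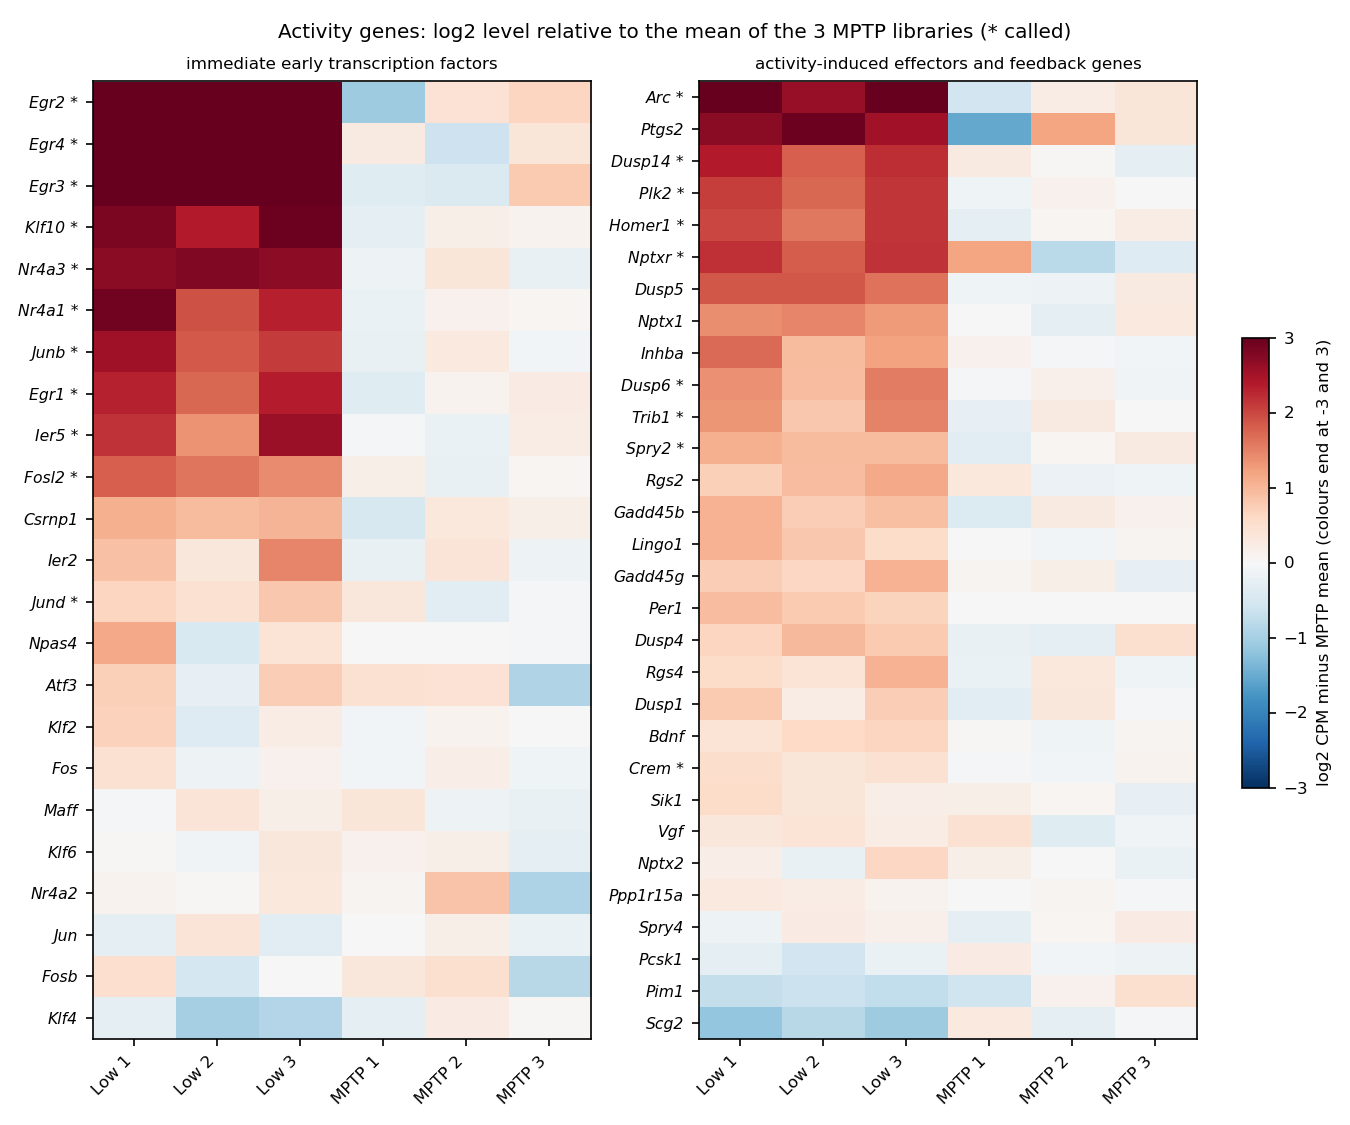
Log2 CPM of each tested member of the 2 activity lists relative to the mean of the MPTP libraries, for low-dose libraries 1 to 3 (left) and MPTP libraries 1 to 3 (right), with red for higher, blue for lower and an asterisk for genes called. Egr1, Nr4a1 and Nr4a3 are red in all low-dose libraries, while Fos, Jun and Nr4a2 are pale or mixed.

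Of the 3 NR4A nuclear receptors, which can act without a bound ligand, Nr4a1 and Nr4a3 rose and Nr4a2 did not pass. Nr4a3 had 45.7, 48.2 and 45.3 CPM in low dose and 6.31, 9.04 and 5.94 CPM in MPTP (log2 fold change 2.71 ± 0.43 SE, adjusted p = 0.00494). Nr4a1 had 113, 57.5 and 77.2 CPM in low dose and 13.3, 16.8 and 16.0 CPM in MPTP (log2 fold change 2.43 ± 0.43 SE, adjusted p = 0.00835). Every low-dose library lay above every MPTP library for both, and both calls held with any of the 6 libraries left out. Nr4a2, the Nurr1 gene of the title, had 18.6, 17.6 and 21.3 CPM in low dose and 18.3, 30.9 and 8.96 CPM in MPTP (log2 fold change -0.02 ± 0.56 SE, adjusted p = 0.989). Its 3 low-dose values lay inside the range of the MPTP values. MPTP 2 was the highest and MPTP 3 the lowest of the 6, and a difference smaller than that spread was not detectable.

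To set the 3 genes side by side, the stretch of 250 bases before the start listed for each in RefSeq (GRCm38.p6) is printed on the strand of the gene, with capitals at each TGACG, the core of the cyclic AMP response element that CREB binds, on either strand (CGTCA on the other).
Nr4a1 (chr15:101266596-101266845, plus strand): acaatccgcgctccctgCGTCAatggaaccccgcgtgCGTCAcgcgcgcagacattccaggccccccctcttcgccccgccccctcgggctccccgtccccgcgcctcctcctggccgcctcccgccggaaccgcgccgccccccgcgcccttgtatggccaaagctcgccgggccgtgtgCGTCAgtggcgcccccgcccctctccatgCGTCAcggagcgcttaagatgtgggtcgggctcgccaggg
Nr4a3 (chr4:48045055-48045304, plus strand): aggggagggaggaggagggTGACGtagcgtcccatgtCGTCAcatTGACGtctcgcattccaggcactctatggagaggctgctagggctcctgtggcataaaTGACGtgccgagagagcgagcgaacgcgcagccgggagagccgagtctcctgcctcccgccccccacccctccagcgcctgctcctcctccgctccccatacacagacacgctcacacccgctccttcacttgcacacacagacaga
Nr4a2 (chr2:57124004-57124253, minus strand): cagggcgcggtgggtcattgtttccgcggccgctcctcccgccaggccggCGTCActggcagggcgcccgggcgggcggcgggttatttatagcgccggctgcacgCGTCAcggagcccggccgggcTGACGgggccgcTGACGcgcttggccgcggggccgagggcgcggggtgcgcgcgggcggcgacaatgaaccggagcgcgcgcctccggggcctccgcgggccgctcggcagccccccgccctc
Each of the 3 windows held 4 such sites, none overlapping another and none forming part of the full palindrome TGACGTCA. At least 1 site was found in 17.8% of all 32851 windows in the table and at least 4 in 0.137%. Over the 19619 windows of genes tested these shares were 22.6% and 0.214%. By this count Nr4a2, which did not pass the test, looked the same as Nr4a1 and Nr4a3, which rose. The window of Nr4a1 is that of a start inside the annotated gene, and other starts were not examined.

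Effector and feedback genes of neuronal activity followed, with 9 of 30 tested members higher and 0 lower, and a median log2 fold change of 0.81. Arc, which drives the uptake of AMPA receptors at active synapses (chromosome 15, 74669081 to 74672570 of GRCm38), had 214, 117 and 159 CPM in low dose and 12.8, 22.4 and 24.6 CPM in MPTP (log2 fold change 3.03 ± 0.50 SE, adjusted p = 0.00591). Its lowest low-dose library was several times its highest MPTP library. Homer1, a postsynaptic scaffold with an activity-induced short form, had 112, 84.1 and 123 CPM in low dose and 23.1, 29.0 and 32.4 CPM in MPTP (log2 fold change 1.91 ± 0.36 SE, adjusted p = 0.0107). Plk2, a kinase of synaptic scaling, had 157, 123 and 166 CPM in low dose and 33.9, 40.5 and 37.7 CPM in MPTP (log2 fold change 1.99 ± 0.46 SE, adjusted p = 0.0215). Inhibitors of the MAP kinase cascade were among the genes that rose. Dusp6, a phosphatase of ERK, had 52.5, 38.5 and 58.9 CPM in low dose and 19.8, 22.7 and 18.98 CPM in MPTP (log2 fold change 1.29 ± 0.23 SE, adjusted p = 0.00794). Dusp14 had 45.7, 30.4 and 40.6 CPM in low dose and 10.54, 8.96 and 7.07 CPM in MPTP (log2 fold change 2.13 ± 0.36 SE, adjusted p = 0.00657). Neither gene's groups overlapped, and the calls of Arc, Dusp6 and Dusp14 held with any library left out. Spry2, Trib1, Crem and Nptxr were the other members that rose. Bdnf, the activity-dependent neurotrophin, had 17.7, 20.1 and 20.7 CPM in low dose and 13.6, 12.0 and 14.1 CPM in MPTP and did not pass (adjusted p = 0.109). In the main edgeR fit 0 of 12 tested neurotrophins and receptors passed, with 2 at an unadjusted p under 0.05 and 0 called by DESeq2. Across the other alternatives, regional covariates and left-out libraries aside, at most 2 of the 12 were called higher and 1 lower. With 1 library left out, the adjusted p of Homer1 reached 0.0515 without MPTP 2 and that of Plk2 reached 0.0821 without MPTP 3, and the list count lay between 3 (without MPTP 2) and 6 (without low-dose 2) with 1 library left out.

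Calcium and calmodulin genes of neurons showed 9 members higher and 2 lower of 30 tested, with a median log2 fold change of 0.91. Itpka, an inositol trisphosphate kinase of dendritic spines in the forebrain, had 103, 76.9 and 112 CPM in low dose and 2.66, 3.47 and 2.57 CPM in MPTP (log2 fold change 5.06 ± 0.94 SE, adjusted p = 0.00986, reaching 0.0537 without MPTP 3). The catalytic calcineurin subunit gene Ppp3ca had 1078, 1028 and 1557 CPM in low dose and 377, 394 and 459 CPM in MPTP (log2 fold change 1.57 ± 0.31 SE, adjusted p = 0.0127, reaching 0.0634 without MPTP 2). Calmodulin, the main calcium sensor of neurons, was represented by Calm2 and Calm3, which rose by log2 fold changes of 0.93 for Calm2 and 0.61 for Calm3, along with the calcium sensor genes Hpca and Ncald. Also higher were Ppp3r1, the calcineurin regulatory subunit, and Cacng8, an AMPA receptor auxiliary subunit. Camk2d, a CaM kinase II subunit that is not the main forebrain form, fell, with 104, 107 and 121 CPM in low dose and 184, 165 and 190.2 CPM in MPTP (log2 fold change -0.70 ± 0.15 SE, adjusted p = 0.0187, reaching 0.0896 without MPTP 3), and so did Cacna1g, a T-type calcium channel of thalamic neurons (115, 82.8 and 84.9 CPM in low dose and 225, 191 and 194 CPM in MPTP). The list count of higher members lay between 0 (without MPTP 2) and 6 (without low-dose 1 or low-dose 2) with 1 library left out, and that of lower members was 0 in all 6 of these fits.

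Postsynaptic scaffold genes gave 6 higher and 0 lower of 21 tested, with a median log2 fold change of 0.81. Dlg3, which encodes the scaffold SAP102, had 186, 172 and 205 CPM in low dose and 98.1, 99.8 and 99.1 CPM in MPTP (log2 fold change 0.92 ± 0.13 SE, adjusted p = 0.00371), a change of less than 2-fold with narrow spread in both groups. Baiap2, a spine actin regulator, had 352, 229 and 291 CPM in low dose and 48.9, 32.3 and 49.7 CPM in MPTP (log2 fold change 2.74 ± 0.53 SE, adjusted p = 0.0116). Dlgap3, Dlg4 and Cnksr2 also rose. The list count lay between 1 (without MPTP 2) and 5 (without low-dose 2 or low-dose 3) with 1 library left out. The call of Dlg3 held with any library left out, and that of Baiap2 reached an adjusted p of 0.0656 without MPTP 2. Among ionotropic glutamate receptor genes, Gria3, Grik5 and Grin2a rose and Grik1 fell, of 18 tested. In the main edgeR fit 0 of 16 GABA-A receptor genes passed, with 4 at an unadjusted p under 0.05 and 2 called by DESeq2. Across the other alternatives, regional covariates and left-out libraries aside, at most 2 GABA-A genes were called higher and 4 lower. The count of glutamate receptor genes that rose lay between 0 (without low-dose 1 or low-dose 3 or MPTP 2 or MPTP 3) and 2 (without low-dose 2) with 1 library left out. Of 42 potassium channel genes, Kcnh3 and Kcns1 rose and Kcnj10 fell. Kcnh3, a forebrain channel of the ether-a-go-go type, had 98.1, 58.3 and 89.6 CPM in low dose and 1.52, 3.81 and 3.06 CPM in MPTP (log2 fold change 4.87 ± 1.07 SE, adjusted p = 0.0183, reaching 0.0778 without MPTP 3). That is 3 of 42, near the 8.53% of all genes.

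For excitatory neurons of cortex and hippocampus, 7 of 20 rose and 0 fell, with a median log2 fold change of 2.48. The log2 fold change was positive for 16 and negative for 4. Every low-dose library lay above every MPTP library for 16 members and below for 3. Lamp5, a membrane protein gene of cortical neurons, had 91.7, 53.0 and 112 CPM in low dose and 13.4, 9.24 and 12.96 CPM in MPTP (log2 fold change 2.85 ± 0.66 SE, adjusted p = 0.0231, reaching 0.103 without MPTP 2). The groups did not overlap, and low-dose 2 was the lowest low-dose library. The vesicular glutamate transporter gene Slc17a7, which marks the same cells, had 765, 540.0 and 557 CPM in low dose and 36.4, 142 and 48.0 CPM in MPTP but missed the threshold (adjusted p = 0.148). For striatal projection neurons 4 of 20 rose and 0 fell (median 1.99). Pde10a, a cyclic nucleotide phosphodiesterase of these neurons, had 280.1, 226 and 169 CPM in low dose and 58.6, 49.4 and 53.8 CPM in MPTP (log2 fold change 2.06 ± 0.56 SE, adjusted p = 0.0408, reaching 0.143 without MPTP 2). Drd1, the D1 dopamine receptor, had 60.9, 52.5 and 56.5 CPM in low dose and 3.76, 2.53 and 3.45 CPM in MPTP, a log2 difference of 4.12 that missed the threshold (adjusted p = 0.0891). The control libraries, which enter the shared estimate of spread, had 89.5, 0.164 and 8.20 CPM of Drd1. Among dopamine signalling genes Gnb5, a G protein subunit that partners RGS9 in the striatum, was also higher, at 141, 143 and 144 CPM in low dose and 89.4, 82.6 and 95.7 CPM in MPTP (log2 fold change 0.68 ± 0.17 SE, adjusted p = 0.0272, reaching 0.127 without MPTP 2). With the regional covariates, 1 of which is built from Slc17a7 among others, the difference of Slc17a7 turned to -0.51 ± 1.09 SE on the log2 scale. The cortical count lay between 2 (without MPTP 2) and 5 (without low-dose 1 or low-dose 2) with 1 library left out, and the striatal count between 0 (without MPTP 2 or MPTP 3) and 3 (without low-dose 1 or low-dose 2) with 1 library left out.

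Among genes of GABA interneurons, 2 of 19 tested rose and 0 fell. Npy, a peptide of a class of somatostatin interneurons and of the arcuate nucleus, had 53.7, 37.1 and 44.99 CPM in low dose and 4.90, 7.45 and 8.80 CPM in MPTP (log2 fold change 2.68 ± 0.36 SE, adjusted p = 0.00294), with a wide gap between the groups, and was called with any library left out. Cck, made by many cortical neurons, had 146, 93.6 and 203 CPM in low dose and 46.3, 54.4 and 42.4 CPM in MPTP (log2 fold change 1.63 ± 0.41 SE, adjusted p = 0.0296, reaching 0.113 without low-dose 3). Sst, the somatostatin gene itself, had 147, 134 and 186 CPM in low dose and 69.8, 46.6 and 63.7 CPM in MPTP and did not pass (adjusted p = 0.308). Low-dose 2 was the lowest low-dose library for all 3 genes, and the list count lay between 1 (without low-dose 1 or low-dose 3 or MPTP 1 or MPTP 2 or MPTP 3) and 2 (without low-dose 2) with 1 library left out. With the regional covariates the difference of Npy was 0.91 ± 0.71 SE on the log2 scale, against 2.68 without them.

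Of 21 tested genes of midbrain and hindbrain neurons, 6 fell and 0 rose, with a median log2 fold change of -2.71, and the factors Ebf2, Ebf3, Gata2, Barhl1 and Mab21l2 were among them with the glycine receptor gene Glra1. Ebf3, a factor of developing and mature hindbrain and midbrain neurons (chromosome 7, 137193671 to 137322805), had 3.96, 7.48 and 5.17 CPM in low dose and 30.7, 30.7 and 47.2 CPM in MPTP (log2 fold change -2.71 ± 0.42 SE, adjusted p = 0.00442). Gata2, a factor of inhibitory midbrain neurons, had 2.11, 2.24 and 1.17 CPM in low dose and 5.21, 6.99 and 8.84 CPM in MPTP (log2 fold change -1.93 ± 0.49 SE, adjusted p = 0.0331, reaching 0.124 without low-dose 3). Low-dose and MPTP values were well apart for both. Irx5, a homeobox gene expressed in the midbrain and hindbrain, showed the same direction, with 0.540, 1.02 and 1.02 CPM in low dose and 2.63, 4.23 and 5.83 CPM in MPTP (log2 fold change -2.30 ± 0.45 SE, adjusted p = 0.0124, reaching 0.0572 without MPTP 3). Thalamic markers had a median of -1.50 but only Cacna1g among 16 tested passed. Rora had 47.1, 61.2 and 75.2 CPM in low dose and 124, 235 and 196 CPM in MPTP and missed the threshold (adjusted p = 0.0654). The midbrain and hindbrain count lay between 1 (without MPTP 3) and 5 (without low-dose 2) with 1 library left out.

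Glycine is a main inhibitory transmitter of the brainstem and spinal cord, and 4 of 11 of its receptor and transporter genes fell, 0 rose and 7 did not pass. The count of lower members lay between 0 (without low-dose 1 or low-dose 3 or MPTP 3) and 4 (without low-dose 2) with 1 library left out. Slc6a9, the glial glycine transporter, had 58.1, 92.5 and 42.2 CPM in low dose and 134, 154 and 164 CPM in MPTP (log2 fold change -1.23 ± 0.27 SE, adjusted p = 0.0178, reaching 0.0749 without MPTP 3). Glrb, the beta subunit, had 172, 207 and 163 CPM in low dose and 230.0, 262 and 298 CPM in MPTP (log2 fold change -0.55 ± 0.15 SE, adjusted p = 0.0448, reaching 0.176 without MPTP 3). The alpha subunit genes Glra1 and Glra4 also fell. Vamp1, a vesicle fusion protein gene outside this list, had 110.3, 226 and 106 CPM in low dose and 295, 407 and 626 CPM in MPTP (log2 fold change -1.59 ± 0.43 SE, adjusted p = 0.0425, reaching 0.165 without MPTP 3). With the regional covariates the log2 difference was 0.58 ± 0.82 SE for Vamp1 and 0.08 ± 0.53 SE for Slc6a9, of the opposite sign and not called.

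Dopamine neuron genes were unevenly spread within the low-dose group. Slc6a3, the dopamine transporter, had 0.607, 47.1 and 1.35 CPM in low dose and 78.4, 121 and 54.5 CPM in MPTP. Slc18a2, the vesicular monoamine transporter, had 4.49, 28.2 and 8.13 CPM in low dose and 51.6, 74.4 and 60.2 CPM in MPTP. Low-dose 2 held most of the signal of its group for both, and in low-dose 1 and 3 Slc6a3 was near 1 CPM. Th, whose enzyme limits dopamine synthesis, had 7.41, 27.7 and 4.45 CPM in low dose and 52.6, 67.7 and 36.1 CPM in MPTP. Ddc, the next enzyme, had 10.9, 34.5 and 13.2 CPM in low dose and 59.5, 70.4 and 58.7 CPM in MPTP. The groups did not overlap for any of the 4 genes, but none passed, with adjusted p-values of 0.523 for Slc6a3, 0.344 for Slc18a2, 0.219 for Th and 0.254 for Ddc. The MPTP libraries were not low beside the controls without MPTP. Controls had 5.86, 7.42 and 27.9 CPM of Th, all below the MPTP libraries. For Slc6a3 they had 5.11, 0 and 55.3 CPM, where only control 3 reached the MPTP range. Of 22 tested dopamine neuron genes, Ret and Aldh1a1 fell. Ret, the signalling receptor for GDNF ligands, had 10.8, 30.0 and 13.4 CPM in low dose and 81.4, 102 and 66.3 CPM in MPTP (log2 fold change -2.20 ± 0.46 SE, adjusted p = 0.0151, reaching 0.068 without low-dose 3). Of 10 tested GDNF family genes 2 fell, Ret and Ncam1, and 0 rose, beside 3.75% lower of all genes. The median log2 fold change of that list was -0.05, with 5 members positive and 5 negative. Ncam1, an adhesion molecule that can act as a GDNF co-receptor, had 303, 342 and 274 CPM in low dose and 485, 412 and 416 CPM in MPTP (log2 fold change -0.51 ± 0.13 SE, adjusted p = 0.032, reaching 0.12 without low-dose 3). Maoa, the monoamine oxidase of catecholamine neurons, fell, with 38.7, 46.6 and 44.8 CPM in low dose and 73.4, 69.7 and 65.8 CPM in MPTP (log2 fold change -0.68 ± 0.11 SE, adjusted p = 0.00551), while Maob, the glial enzyme that activates MPTP, had 31.9, 32.1 and 48.8 CPM in low dose and 60.4, 43.5 and 43.2 CPM in MPTP and did not pass (adjusted p = 0.548). The call of Maoa held with any library left out. With the regional covariates the log2 differences of dopamine genes turned sign without being called, at 2.91 ± 3.49 SE for Slc6a3, 0.77 ± 1.92 SE for Th and 0.33 ± 0.91 SE for Ret.

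The choroid plexus, which makes cerebrospinal fluid, contributed 8 members higher of 18 tested and 0 lower, with a median log2 fold change of 2.46. Ttr, the thyroxine and retinol carrier it secretes, had 846, 1329.8 and 1269 CPM in low dose and 1.20, 7.64 and 1.92 CPM in MPTP (log2 fold change 8.32 ± 1.42 SE, adjusted p = 0.00706). Aqp1, its apical water channel, had 3.64, 4.98 and 1.84 CPM in low dose and 0.117, 0.249 and 0.178 CPM in MPTP (log2 fold change 4.25 ± 0.79 SE, adjusted p = 0.0101, reaching 0.0514 without MPTP 3). The gap was wide in every pair of libraries, but the untreated controls ran from low to high, with 45.3, 95.4 and 857 CPM of Ttr and 0.297, 0.755 and 3.33 CPM of Aqp1. Control 3 thus lay inside the low-dose range in both genes. Retinoid genes gave 4 higher and 1 lower of 18 tested. They included Stra6, the receptor for retinol-binding protein, at 4.72, 3.00 and 2.37 CPM in low dose and 0.571, 1.17 and 1.11 CPM in MPTP (log2 fold change 1.82 ± 0.38 SE, adjusted p = 0.0148, reaching 0.0514 without MPTP 3), its ligand gene Rbp4, the cellular carrier Rlbp1, and in the other direction Aldh1a1, which makes retinoic acid. Some of these are also made by the choroid plexus or its neighbours, and that part was not tested. The choroid plexus count lay between 1 (without MPTP 3) and 4 (without low-dose 1) with 1 library left out. The retinoid count of higher members lay between 0 (without MPTP 3) and 2 (without low-dose 1 or low-dose 2 or low-dose 3 or MPTP 1 or MPTP 2) with 1 library left out, and that of lower members between 0 (without low-dose 1 or low-dose 3 or MPTP 2 or MPTP 3) and 1 (without low-dose 2 or MPTP 1) with 1 library left out.

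Thyroid hormone handling gave 5 higher and 1 lower of 14 tested, with a median log2 fold change of 0.85. Thra, the main thyroid hormone receptor of neurons, had 659.8, 658 and 586 CPM in low dose and 424, 339.6 and 367 CPM in MPTP (log2 fold change 0.75 ± 0.11 SE, adjusted p = 0.00371). Of the deiodinases, Dio2, which activates the hormone in glia, had 59.5, 51.4 and 68.0 CPM in low dose and 19.5, 34.7 and 38.3 CPM in MPTP (log2 fold change 0.95 ± 0.26 SE, adjusted p = 0.0429). Dio3, which inactivates it, had 2.31, 2.44 and 1.59 CPM in low dose and 0.102, 0.351 and 0.193 CPM in MPTP (log2 fold change 3.28 ± 0.80 SE, adjusted p = 0.0278). No low-dose value of these 3 genes lay inside the MPTP range, and of the 3 only Thra held its call with any library left out. Dio2 reached 0.134 without low-dose 3 and Dio3 reached 0.112 without MPTP 3. The count of higher members lay between 2 (without low-dose 1 or MPTP 1 or MPTP 2 or MPTP 3) and 3 (without low-dose 2 or low-dose 3) with 1 library left out. Ttr is also a member, so the list overlaps that of the choroid plexus.

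Of 20 tested endothelial markers 10 fell and 0 rose, with a median log2 fold change of -0.86, and their summed level was 253, 142 and 201 CPM in low dose, against 281, 446 and 379 CPM in MPTP. Ptprb, a phosphatase that holds the angiopoietin receptor in check, had 25.6, 12.8 and 16.6 CPM in low dose and 37.6, 68.3 and 56.8 CPM in MPTP (log2 fold change -1.56 ± 0.26 SE, adjusted p = 0.00623). Cdh5, the adherens junction cadherin of endothelium, had 7.29, 4.46 and 4.68 CPM in low dose and 8.62, 17.0 and 13.6 CPM in MPTP (log2 fold change -1.25 ± 0.29 SE, adjusted p = 0.0214, reaching 0.0987 without MPTP 2). Low-dose 2 was lowest and MPTP 1 lowest of its group for both, so the groups came nearest at low-dose 1 and MPTP 1. Blood-brain barrier transport genes gave 6 lower and 0 higher of 19 tested. Slco1a4, an organic anion transporter, had 49.6, 29.4 and 37.8 CPM in low dose and 50.9, 99.3 and 80.1 CPM in MPTP (log2 fold change -0.98 ± 0.22 SE, adjusted p = 0.0207, reaching 0.0962 without MPTP 2). Slc2a1, the glucose transporter GLUT1, had 65.0, 67.4 and 67.8 CPM in low dose and 85.0, 114 and 94.9 CPM in MPTP (log2 fold change -0.55 ± 0.13 SE, adjusted p = 0.0242, reaching 0.114 without MPTP 2). Abcb1a, the drug efflux pump P-glycoprotein, had 17.0, 11.1 and 12.9 CPM in low dose and 27.1, 53.5 and 43.2 CPM in MPTP (log2 fold change -1.59 ± 0.25 SE, adjusted p = 0.00488), and it and Ptprb were called with any library left out. The endothelial count lay between 1 (without low-dose 3 or MPTP 2 or MPTP 3) and 10 (without low-dose 1) with 1 library left out, and the barrier count between 1 (without low-dose 2 or low-dose 3 or MPTP 2 or MPTP 3) and 5 (without MPTP 1) with 1 library left out.

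Among markers of pericytes and smooth muscle, 3 of 16 fell and 0 rose. Notch3, the Notch receptor of pericytes and arterial smooth muscle (chromosome 17, 32120820 to 32166896), had 10.3, 9.56 and 6.67 CPM in low dose and 26.3, 24.6 and 29.8 CPM in MPTP (log2 fold change -1.60 ± 0.19 SE, adjusted p = 0.0017). Abcc9, the regulatory subunit of the pericyte potassium channel sensitive to ATP, had 8.37, 6.43 and 6.15 CPM in low dose and 12.2, 20.3 and 14.9 CPM in MPTP (log2 fold change -1.18 ± 0.20 SE, adjusted p = 0.00706). Both held with any library left out, and for Notch3 the untreated controls, at 16.3, 15.4 and 15.4 CPM, lay between the 2 groups. The other member that fell was Atp13a5, and the list count lay between 2 (without low-dose 2 or low-dose 3 or MPTP 2 or MPTP 3) and 4 (without low-dose 1 or MPTP 1) with 1 library left out. Pdgfrb, the pericyte growth factor receptor, had 25.1, 18.1 and 18.8 CPM in low dose and 23.2, 29.0 and 27.3 CPM in MPTP and did not pass (adjusted p = 0.193). In vascular signalling Flt1, Tek, Jag1 and Fzd4 fell and Hey1, a Notch target also made by other cells, rose (log2 fold change 0.57 ± 0.12 SE, adjusted p = 0.0169, reaching 0.0703 without MPTP 2), of 31 tested, and the count of lower members lay between 0 (without low-dose 3 or MPTP 2 or MPTP 3) and 4 (without low-dose 1 or MPTP 1) with 1 library left out. Hbb-bs, a beta globin of red cells that reports blood left in the tissue, had 56.0, 75.9 and 77.6 CPM in low dose and 58.4, 117 and 68.4 CPM in MPTP, with overlap (adjusted p = 0.808).

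Astrocyte genes gave 6 lower and 0 higher of 18 tested, with a median log2 fold change of -0.50. Agt, the angiotensinogen gene, had 44.3, 113 and 47.4 CPM in low dose and 230.3, 203 and 158 CPM in MPTP (log2 fold change -1.53 ± 0.42 SE, adjusted p = 0.0418, reaching 0.15 without low-dose 3). Gja1, the gap junction protein connexin 43, had 183, 242 and 192 CPM in low dose and 274, 298 and 306 CPM in MPTP (log2 fold change -0.51 ± 0.14 SE, adjusted p = 0.041, reaching 0.142 without MPTP 3). Kcnj10, from the potassium channel list, clears potassium into astrocytes and had 206, 269.6 and 229 CPM in low dose and 547, 614 and 637 CPM in MPTP (log2 fold change -1.35 ± 0.24 SE, adjusted p = 0.00876), a call that held with any library left out. Low-dose 2 was the low-dose library nearest to MPTP for Agt, Gja1 and Kcnj10. The secreted matrix protein genes Sparcl1 and Sparc, made by astrocytes and other cells, fell too: Sparcl1 had 1422, 1700.4 and 1474 CPM in low dose and 2473, 2874 and 3059 CPM in MPTP (log2 fold change -0.87 ± 0.15 SE, adjusted p = 0.00706). Sparc had 339, 738 and 386 CPM in low dose and 1464, 1223 and 1182 CPM in MPTP (log2 fold change -1.40 ± 0.31 SE, adjusted p = 0.0188, reaching 0.0763 without low-dose 3). With Col6a6 and Fn1 they made 4 lower of 31 tested matrix genes, a count that lay between 1 (without MPTP 2) and 3 (without low-dose 2 or MPTP 1) with 1 library left out. Col6a1 was the 1 higher, with 238, 97.5 and 135 CPM in low dose and 13.3, 22.8 and 10.9 CPM in MPTP (log2 fold change 3.32 ± 0.74 SE, adjusted p = 0.0196, reaching 0.0913 without MPTP 3). In the main edgeR fit 0 of 18 oligodendrocyte genes and 0 of 13 precursor genes passed. At an unadjusted p under 0.05 there were 0 oligodendrocyte and 2 precursor genes, and DESeq2 called 0 and 1. Across the other alternatives, regional covariates and left-out libraries aside, at most 3 precursor genes were called lower and 0 higher. The astrocyte count lay between 0 (without low-dose 3 or MPTP 2 or MPTP 3) and 6 (without low-dose 2) with 1 library left out.

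Microglia, the brain cells that make most of its Btk, showed no called change in their homeostatic genes in the main edgeR fit, 0 of 20. There were 0 at an unadjusted p under 0.05 and 0 called by DESeq2, with a median log2 fold change of 0.07. Across the other alternatives, regional covariates and left-out libraries aside, at most 4 were called higher and 1 lower. Btk itself had 0.725, 0.763 and 0.911 CPM in low dose and 1.13, 1.33 and 0.758 CPM in MPTP (log2 fold change -0.42 ± 0.42 SE, adjusted p = 0.574), with overlapping groups. Tmem119, a microglial surface gene, had 18.4, 19.5 and 14.6 CPM in low dose and 11.5, 16.5 and 11.8 CPM in MPTP (adjusted p = 0.537). Apoe, raised in activated microglia but made mostly by astrocytes, had 1456, 1565 and 1725 CPM in low dose and 1288, 1214 and 1133 CPM in MPTP (adjusted p = 0.115). These values overlap for Tmem119 and are close but apart for Apoe. Axl, a receptor of activated microglia that other brain cells also make, was the only called member of 17 activation genes, beside 8.53% of all genes tested. It had 43.5, 51.5 and 44.4 CPM in low dose and 60.8, 69.9 and 65.7 CPM in MPTP (log2 fold change -0.49 ± 0.11 SE, adjusted p = 0.0169, reaching 0.0763 without MPTP 2).

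Signalling partners of BTK changed at about the rate of all genes, with 2 higher and 1 lower of 28 tested. Blnk, the adaptor that joins BTK to phospholipase C gamma in B cells, had 5.82, 3.26 and 6.73 CPM in low dose and 1.92, 1.92 and 1.90 CPM in MPTP (log2 fold change 1.46 ± 0.39 SE, adjusted p = 0.0376, reaching 0.13 without low-dose 3). Prkcb, a protein kinase C that acts after BTK and is abundant in forebrain neurons, had 810.0, 652 and 747 CPM in low dose and 264, 277 and 340.4 CPM in MPTP (log2 fold change 1.33 ± 0.32 SE, adjusted p = 0.0252, reaching 0.107 without MPTP 2). Vav3, an exchange factor for small GTPases, had 10.6, 13.4 and 19.8 CPM in low dose and 31.2, 55.2 and 33.3 CPM in MPTP (log2 fold change -1.45 ± 0.34 SE, adjusted p = 0.0237, reaching 0.104 without MPTP 2). Low-dose and MPTP values of the 3 genes did not overlap, and the cells that made them were not resolved. Of 18 inflammatory cytokine and mediator genes 0 passed by edgeR, with 2 at an unadjusted p under 0.05 and 2 called by DESeq2. Among these Nos2, the inducible nitric oxide synthase, had 0.422, 0.162 and 0.158 CPM in low dose and 0.644, 0.864 and 0.654 CPM in MPTP (adjusted p = 0.0699). Interferon response genes gave 3 lower (Oasl2, Ddx58 and Rsad2) and 0 higher of 24. Ddx58, the viral RNA sensor RIG-I, had 4.13, 3.85 and 4.40 CPM in low dose and 5.47, 8.39 and 7.36 CPM in MPTP (log2 fold change -0.78 ± 0.20 SE, adjusted p = 0.0324, reaching 0.131 without MPTP 2), and the list count lay between 0 (without low-dose 3 or MPTP 2 or MPTP 3) and 3 (without MPTP 1) with 1 library left out.

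Complement genes gave 1 call in 16, beside 8.53% of all genes tested. The median log2 fold change of the list was -0.07, with 7 members positive and 9 negative. Cd59a, which blocks the membrane attack complex on the cell's own surface (chromosome 2, 104095753 to 104115410), had 10.4, 8.52 and 11.4 CPM in low dose and 33.3, 32.5 and 28.7 CPM in MPTP (log2 fold change -1.64 ± 0.23 SE, adjusted p = 0.00309). The lowest MPTP value was more than 2 times the highest low-dose value, and the call held with any library left out. All 9 libraries without the inhibitor lay above all 6 with it, with 7.53, 9.98 and 14.7 CPM in high dose, 30.1, 24.3 and 27.2 CPM in levodopa and 27.6, 22.1 and 34.0 CPM in controls. Such a gap, in either direction, was found in 1868 of all 21821 genes tested.

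Genes of protein folding rose in part. Of 24 unfolded protein response genes 5 rose and 0 fell, with a median log2 fold change of 0.31. Creld2, an endoplasmic reticulum isomerase partner induced by that response, had 17.3, 18.1 and 27.7 CPM in low dose and 12.7, 10.7 and 12.2 CPM in MPTP (log2 fold change 0.83 ± 0.17 SE, adjusted p = 0.0143, reaching 0.0727 without MPTP 2). Pdia4, a protein disulfide isomerase, had 54.2, 63.5 and 67.7 CPM in low dose and 43.8, 37.5 and 38.3 CPM in MPTP (log2 fold change 0.63 ± 0.17 SE, adjusted p = 0.0386, reaching 0.138 without MPTP 2). The gaps were small but no values overlapped. In the fit with regional covariates the differences of these genes were larger, 1.47 ± 0.41 SE for Creld2 and 1.53 ± 0.24 SE for Pdia4 on the log2 scale, though not called (adjusted p = 0.813 and 0.158). Among 20 heat shock chaperone genes 3 rose and 1, Hspa4l, fell. Dnajb5, a cytosolic co-chaperone, had 139, 96.5 and 125 CPM in low dose and 47.4, 52.3 and 47.8 CPM in MPTP (log2 fold change 1.29 ± 0.19 SE, adjusted p = 0.00382) and held with any library left out. Hspa1b, an inducible HSP70 gene, had 17.7, 60.9 and 21.7 CPM in low dose and 7.01, 4.01 and 6.39 CPM in MPTP (log2 fold change 2.53 ± 0.44 SE, adjusted p = 0.00797), and its near-identical copy Hspa1a, with which it may share reads, had 17.95, 56.5 and 20.4 CPM in low dose and 10.8, 6.40 and 8.71 CPM in MPTP (log2 fold change 1.87 ± 0.40 SE, adjusted p = 0.0161, reaching 0.082 without MPTP 2). Low-dose 2 was by far the highest library for both. The unfolded protein response count lay between 0 (without MPTP 2 or MPTP 3) and 7 (without low-dose 1) with 1 library left out.

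Ribosomal protein genes gave 10 higher and 0 lower of 55 tested, with a median log2 fold change of 0.44. Rpl36, of the large subunit, had 65.3, 97.8 and 60.4 CPM in low dose and 48.9, 38.0 and 37.6 CPM in MPTP (log2 fold change 0.84 ± 0.20 SE, adjusted p = 0.0244, reaching 0.107 without MPTP 2). Low-dose 2 was highest and no values overlapped. Of respiratory chain genes of the nucleus, 6 of 37 genes of complexes II to V rose and 0 fell, a count that lay between 1 (without MPTP 2 or MPTP 3) and 7 (without low-dose 1) with 1 library left out. The 2 of 37 complex I genes that rose are near the 4.78% of all genes. Their log2 fold changes were positive for 35 and negative for 2, with a median of 0.23, against -0.0045 over all genes. Cox6a1, a cytochrome oxidase subunit, had 164, 189 and 168 CPM in low dose and 117, 134 and 123 CPM in MPTP (log2 fold change 0.48 ± 0.11 SE, adjusted p = 0.0203, reaching 0.0879 without MPTP 3). By edgeR 0 of 13 protein genes of the mitochondrial genome passed, with 1 at an unadjusted p under 0.05 and 0 called by DESeq2. Many of these short, abundant genes have processed copies elsewhere in the genome, so their reads may be shared. The ribosomal count lay between 1 (without MPTP 2 or MPTP 3) and 9 (without low-dose 1) with 1 library left out. A list of histone genes, most but not all with messages that normally lack a poly(A) tail, gave 4 higher of 12 tested. They were H2ac18, H2ac19, H2bc4 and H3c15, and the count lay between 2 (without MPTP 2) and 5 (without low-dose 3) with 1 library left out. Of these, H2ac18 and H2ac19 are near-identical neighbours. H2bc4 had 23.6, 27.1 and 24.2 CPM in low dose and 16.8, 16.7 and 18.7 CPM in MPTP (log2 fold change 0.52 ± 0.11 SE, adjusted p = 0.0143, reaching 0.0733 without MPTP 2). Mitochondrial ribosomal RNA, whose share depends on how messages were selected, took 1.15%, 0.937% and 1.46% of reads in low dose, against 0.795%, 0.814% and 0.656% in MPTP, and its part in these results was not tested.

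Calls in 4 further lists, of stress, clock, hormone and lipid genes, stand beside 4.78% higher and 3.75% lower of all genes tested. Of 27 antioxidant genes Txn2, the mitochondrial thioredoxin, and Mt3, the neuronal metallothionein, rose. Mt3 had 132, 191 and 194 CPM in low dose and 106, 116 and 107 CPM in MPTP (log2 fold change 0.65 ± 0.18 SE, adjusted p = 0.0446, reaching 0.133 without low-dose 3). Of 20 clock genes Per2 rose, with 62.2, 50.5 and 54.6 CPM in low dose and 30.9, 28.2 and 33.3 CPM in MPTP (log2 fold change 0.86 ± 0.23 SE, adjusted p = 0.0418, reaching 0.158 without MPTP 2). Of 21 glucocorticoid response genes Cdkn1a, Nr3c2 and Ddit4 rose, and Cdkn1a, the cell cycle inhibitor p21, had 16.2, 11.1 and 13.1 CPM in low dose and 6.19, 6.30 and 5.37 CPM in MPTP (log2 fold change 1.18 ± 0.25 SE, adjusted p = 0.0154, reaching 0.0758 without MPTP 3). The glucocorticoid count lay between 0 and 1 with 1 library left out. Lss, lanosterol synthase, fell as the only call in 22 cholesterol genes (log2 fold change -0.35 ± 0.09 SE, adjusted p = 0.0265, reaching 0.108 without MPTP 1).

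By fitted log2 fold change, Ovol2 and Spink8 led the genes that rose, and both had no read in any MPTP library. Ovol2, an epithelial zinc finger factor, had 3.54, 1.66 and 4.19 CPM in low dose, at least 70.9-fold higher than a floor of 3 reads per MPTP library, and Spink8, a protease inhibitor with a known hippocampal transcript in mouse, had 1.79, 4.68 and 1.93 CPM, at least 63.4-fold higher. Among abundant genes of at least 100 CPM over the 6 libraries, Vxn, known in Xenopus as a neurogenesis factor, had 274, 171 and 337 CPM in low dose and 27.8, 28.8 and 28.2 CPM in MPTP (log2 fold change 3.21 ± 0.65 SE, adjusted p = 0.0142, reaching 0.0646 without MPTP 2). Wipf3, an actin regulator, had 183, 191 and 178 CPM in low dose and 20.6, 27.5 and 29.4 CPM in MPTP (log2 fold change 2.83 ± 0.47 SE, adjusted p = 0.00655). Mef2c, an activity-regulated factor of cortical neurons, had 346, 185 and 408 CPM in low dose and 41.1, 64.9 and 59.5 CPM in MPTP (log2 fold change 2.50 ± 0.55 SE, adjusted p = 0.0181, reaching 0.0726 without MPTP 3). In the other direction Plcb4, a phospholipase C of thalamic and cerebellar neurons, had 55.5, 65.8 and 77.8 CPM in low dose and 162, 202 and 215 CPM in MPTP (log2 fold change -1.54 ± 0.38 SE, adjusted p = 0.0285, reaching 0.104 without MPTP 3). The rule that picked these genes required that the 2 groups not overlap.

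The pseudogene Pisd-ps1 had the largest fall among called genes without overlap and of at least 100 CPM over the 6 libraries. Predicted genes and mitochondrial transfer RNAs were left out of that ranking. It had 72.4, 89.3 and 83.4 CPM in low dose and 295, 236 and 253 CPM in MPTP (log2 fold change -1.68 ± 0.14 SE, adjusted p = 0.000268), and it held with any library left out. It is a copy of Pisd, the enzyme that makes phosphatidylethanolamine in mitochondria, so reads may be shared between copies. The chemokine gene Ccl21b, 1 of several near-identical copies, had 4.56, 2.39 and 8.67 CPM in low dose and 0.0293, 0.0293 and 0.0594 CPM in MPTP (adjusted p = 0.000496), where the MPTP values rest on a few reads per library. In both genes all 6 inhibitor libraries lay beyond all 9 others, with 45.6, 43.6 and 51.1 CPM of Pisd-ps1 and 2.31, 3.54 and 0.993 CPM of Ccl21b in high dose. That is not particular to these 2 genes. It held for 1868 of the 21821 genes tested, among them 490 of the 1042 that rose and 407 of the 819 that fell. With regional covariates the low-dose difference of Pisd-ps1 was -1.34 ± 0.31 SE on the log2 scale (adjusted p = 0.594).

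**Figure D4:**
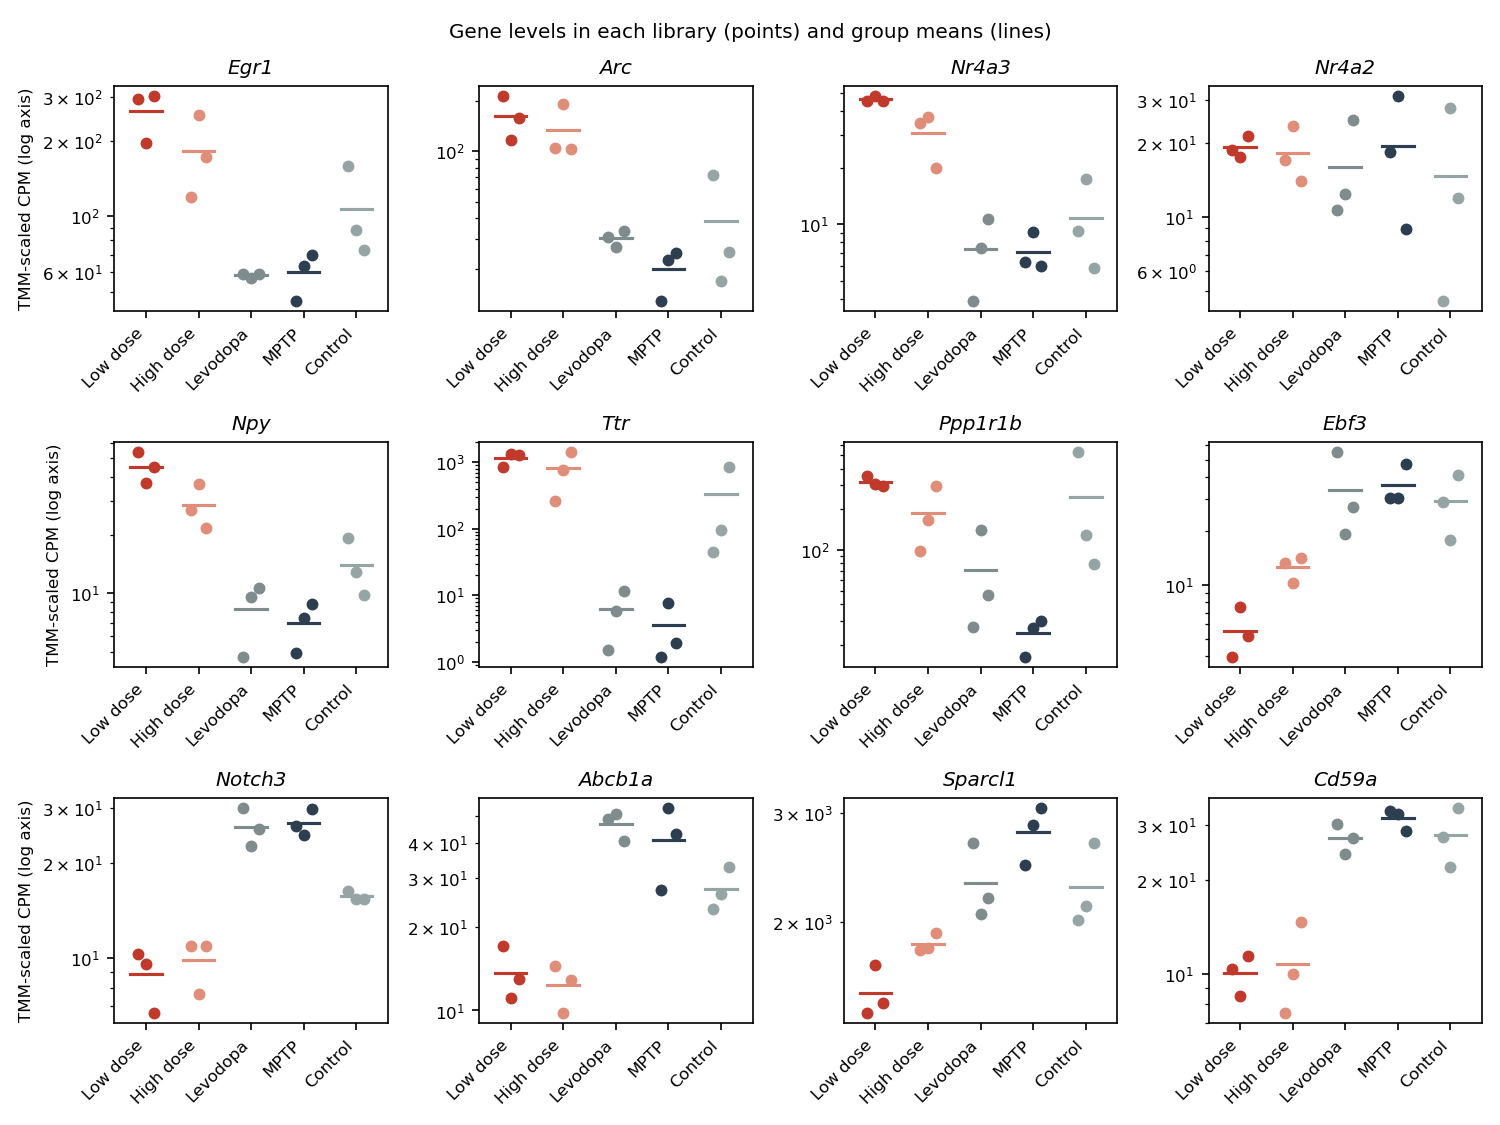
TMM-scaled CPM (log axis) of 12 genes in each library, as points with the group mean as a line, for low dose, high dose, levodopa, MPTP and control. Low dose and MPTP are apart in every gene but Nr4a2, and control libraries reach the low-dose range in Ttr and Ppp1r1b but not in Nr4a3, Npy, Notch3 or Cd59a.

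The dose was compared directly. Between low and high dose 0 genes were called by edgeR (0%), 486 had an unadjusted p under 0.05 (2.23% of all) and DESeq2 called 2. That does not show that the doses acted alike, and the intervals given by the standard errors are wide. High dose against MPTP called 429 genes (1.97%), 236 higher (1.08%) and 193 lower (0.884%), and it shares its MPTP libraries with the low-dose comparison. Side by side, the log2 fold change against MPTP was 2.14 in low dose and 1.60 in high dose for Egr1, 2.71 in low dose and 2.11 in high dose for Nr4a3, and -2.71 in low dose and -1.53 in high dose for Ebf3. The low-dose minus high-dose difference was 0.53 ± 0.31 SE for Egr1, 0.60 ± 0.40 SE for Nr4a3 and -1.17 ± 0.40 SE for Ebf3. Among vessel genes Ptprb had 16.8, 14.9 and 16.4 CPM in high dose, with a low-dose minus high-dose difference of 0.19 ± 0.25 SE, and in high dose 9 of 20 endothelial genes fell and 0 rose. In high dose 2 of 20 cortical neuron genes rose and 0 fell, and 7 of 23 immediate early factors rose and 1 fell, beside 1.08% higher and 0.884% lower of all genes. The medians of the log2 fold change against MPTP lay closer than these counts. They were 2.48 in low and 2.09 in high dose for cortical genes, and 0.94 and 0.81 for immediate early factors. For endothelial genes the median was -0.86 in low dose and -1.31 in high dose.

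Against the 9 libraries without the inhibitor, the low-dose group stood outside the whole range for 15.7% of all genes tested. Among genes that rose against MPTP, 781 of 1042 lay above all 9, and among those that fell 616 of 819 lay below all 9. The choice of these genes by their distance from MPTP favours such counts. Arc was such a gene, with 30.7, 26.8 and 33.7 CPM in levodopa and 72.6, 16.8 and 25.2 CPM in control libraries, all below the 3 low-dose values. Ppp1r1b, the striatal phosphoprotein DARPP-32, was not, as it had 355, 305 and 297 CPM in low dose, 27.2, 141 and 46.2 CPM in levodopa, 16.3, 26.4 and 29.8 CPM in MPTP and 528, 129.7 and 78.7 CPM in controls. Control 1 was the highest of all 15 libraries for that gene and also for the summed striatal markers.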

How the data were processed

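Total RNA of mouse brain was sequenced in 15 libraries. Whole-number read counts per gene were deposited by the authors, 1 file per library, without normalization. The submitters' processing notes list the aligner HISAT2 2.1.0, the assembler StringTie 2.1.3b, Trimmomatic and bcl2fastq 2.20.0, and the builds mm10 and GRCm38. No annotation, counting step or strand setting is stated there, so overlapping, antisense and near-identical genes are uncertain. Library totals ran from 58149722 to 68257095 reads, and a floor of 3 reads is at most 0.0516 CPM.

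Groups came from the sample labels. Of 45777 symbols, 21821 passed edgeR's filterByExpr. edgeR 4.0.16 (R 4.3.3) was fitted with TMM factors to all 15 libraries without covariates (quasi-likelihood test, Benjamini-Hochberg adjustment over all genes tested, threshold 0.05), with the contrasts low dose minus MPTP, low minus high dose, and high dose minus MPTP. The test was tried on simulated counts with known changes. Alternatives were DESeq2 1.42.0, other scalings and filters, other samples, replicate number as a block, regional covariates (mean standardized log2 CPM, prior count 2, of cerebellar, cortical and thalamic markers) and leaving out each library.

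The 58 gene lists (1200 entries, 1197 matched, 1157 tested) and the genes followed were chosen with earlier results of these data known. Genes were named as the largest called changes without overlap, overall (at least 1 CPM) and at 100 CPM or more, the study genes Btk, Nr4a2, Slc6a3, Slc18a2, Ddc and Th, and the members of each list with the smallest p. Other genes, among them Fos, Npas4, Gh, Tmem119 and Sst, were named after their values were seen, and some list members are not reported here. Positions and promoter windows are from RefSeq, GRCm38.p6, for 40686 symbols. The 13 mitochondrial symbols were matched by hand after the files were read.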

Additional observations from a re-analysis of the deposited data

How the results depend on the processing

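The count of 1861 genes called in low dose against MPTP (1042 higher, 819 lower) stayed within 1.5 times under RLE or upper-quartile scaling, a minimum of 5 CPM in 3 libraries, and the replicate block, which gave 1723 (943 higher, 780 lower). DESeq2 called 3412 (1818 higher, 1594 lower), a fit without a filter on low counts 1224 (691 higher, 533 lower), a fit of the 2 groups alone 4253 (2266 higher, 1987 lower), and a fit without control 2 and levodopa 2, which hold cerebellar markers, 5288 (2685 higher, 2603 lower). With 1 library left out the total ran between 421 and 1300, the higher genes between 230 and 716 and the lower between 172 and 584. With the regional covariates the counts were 0, 0 and 0. The cause of these shifts was not tested. Low against high dose gave 0 throughout, except 2 under DESeq2. Of the 126 called genes named, 106 kept their call under the replicate block and 32 with each library left out in turn. Equal replicate numbers did not pair the libraries, with correlations of their deviations of 0.0330, -0.0185 and -0.0450, so that block is not a pairing. Differences that changed sign with the regional covariates had these log2 values: Aldh1a1 0.13, Bdnf -0.15, Btk 0.18, Cnksr2 -0.26, Ddc 0.85, Fos -1.03, Gria3 -0.16, Grin2a -0.26, Hspa4l 0.24, Irx5 0.47, Jun 0.28, Mab21l2 0.34, Mef2c -0.61, Npas4 -0.89, Nptxr -0.53, Pomc -3.51, Ppp3r1 -0.02, Ret 0.33, Rlbp1 -0.12, Slc17a7 -0.51, Slc18a2 1.75, Slc2a1 0.06, Slc6a3 2.91, Slc6a9 0.08, Th 0.77, Tph2 3.61, Trib1 -0.03, Vamp1 0.58 and Vav3 0.10. Small differences that passed 0 otherwise were those of Nr4a2 (0.08 under the block and between -0.35 and 0.49 with 1 library left out), and, with 1 library left out, Jun (between -0.30 and 0.10), Hbb-bs (between -0.39 and 0.14) and Tph2 (between -4.24 and 0.39).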
